A study of Homo sapiens with 6 samples.

Results

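The SOX transcription factors were followed in Huh7, a long-established line of human liver cancer cells, at 48 h after a lentivirus had brought in either an LHX2 expression vector or a control vector. SOX4, the most abundant SOX transcript per length, rose 1.18-fold with LHX2. SOX5, SOX6, SOX9, SOX12 and SOX13 did not pass the test. SOX2, SOX8, SOX11 and SOX18 had at most 5 counts in any library. The members were the 10 genes SOX2, SOX4, SOX5, SOX6, SOX8, SOX9, SOX11, SOX12, SOX13 and SOX18, found by gene symbol among the 28265 genes of the deposited count table.

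Each group held 3 libraries of mRNA sequencing, and reads were counted per gene. In one group the cells carried the vector expressing LHX2, a LIM-homeodomain transcription factor, and the others carried the control vector on the same parental line. The labels give neither the promoter of the vectors nor whether the replicates were separate cultures. The p-values therefore rest on differences among libraries of a group that could be technical.

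SOX proteins share the HMG box, a DNA-binding domain that enters the minor groove and bends DNA, and take their name from the sex-determining gene SRY. They are sorted into lettered groups by sequence. SOX2 belongs to group B1, SOX4, SOX11 and SOX12 to group C, SOX5, SOX6 and SOX13 to group D, SOX8 and SOX9 to group E and SOX18 to group F. In liver, SOX9 is known as a marker of bile duct cells and their precursors, and in mice SOX4 acts with it in bile duct development.

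Total counts per library ran from 30029313 to 35194438 with LHX2 and from 32625405 to 39653681 in the control. LHX2 itself had 2535, 2427 and 3126 counts in the LHX2 libraries and 1, 2 and 1 in the control libraries. Hepatocyte markers were present, and the summed level of the 12 genes, among them ALB and AFP, was 48850 to 53020 CPM with LHX2 and 51510 to 52740 CPM in the control (CPM, counts scaled to the size of each library). Of those markers 2 were higher, 5 lower and 5 did not pass, beside 16.6% higher and 15.8% lower over all tested genes. The 12 endothelial markers had 5 genes at 0 in every library (CDH5, KDR, TEK, CLDN5, ERG), the 8 immune markers had CD3E and CSF1R at 0, and the 8 mesenchymal markers had THY1 at 0. Other genes of these lists were expressed. Mean levels with LHX2 and in the control were 259 and 213 CPM for PROX1, 635 and 472 CPM for LYZ, and 36.8 and 9.26 CPM for COL1A2. No library showed the counts of another within sampling noise.

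The promoters of SOX4 and SOX12 are given because these are the group C genes with counts and their base composition is unlike. Each has 300 bases, from 250 before to 50 after the start annotated in RefSeq. Both come from RefSeq on build GRCh38.p14, plus strand, at chr6:21593501-21593800 and chr20:325302-325601, and capitals mark the CCAAT box, CCAAT or its reverse complement ATTGG. Transcript lengths came from GENCODE, where SOX4 was 1 exon of 5852 bases with an earlier start. There its overlap with an antisense gene ran from chr6:21592768 to 21595593. By that annotation the SOX4 window lay inside the exon, not around its start.
SOX4: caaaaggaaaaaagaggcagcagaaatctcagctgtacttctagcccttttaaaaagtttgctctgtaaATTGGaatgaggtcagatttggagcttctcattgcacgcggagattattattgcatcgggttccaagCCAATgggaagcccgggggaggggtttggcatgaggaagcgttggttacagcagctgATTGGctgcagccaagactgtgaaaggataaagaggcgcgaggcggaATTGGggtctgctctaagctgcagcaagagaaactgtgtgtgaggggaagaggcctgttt
SOX12: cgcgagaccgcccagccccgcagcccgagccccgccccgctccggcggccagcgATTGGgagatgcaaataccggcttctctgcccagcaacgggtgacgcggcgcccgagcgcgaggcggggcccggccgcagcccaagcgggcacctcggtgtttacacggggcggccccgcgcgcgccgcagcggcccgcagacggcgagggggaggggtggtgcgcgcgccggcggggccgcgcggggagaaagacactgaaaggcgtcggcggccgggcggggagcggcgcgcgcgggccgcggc
The SOX4 promoter had a GC content of 49.3% and 8 CG dinucleotides, and the SOX12 promoter 80.3% and 54, beside medians of 58.7% and 14 over 34943 promoters of the same length. SOX4 held 4 matches to CCAAT on either strand and SOX12 held 1, and 1.0% of all promoters held at least 4. Of all promoters 34.7% held at least 1 such match.

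The LIM-homeodomain core TAATTA was searched on both strands in the entries for SOX2, SOX4, SOX5, SOX6, SOX12 and SOX13, of which SOX6 had 5 starts. It was found in 0 of them, and in 4.85% of all promoters. A match or its lack describes these letters in this window alone. The SOX core ACAAT was found in the SOX5 entry and all SOX6 entries, 27.4% of promoters holding it. SOX8, SOX9, SOX11 and SOX18 had no entry among the promoters used and were not searched.

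Of the 10 members 6 passed the filter on low counts and were tested. 1 of them changed at an adjusted p under 0.05, and it was higher. Among 14533 genes tested, 32.5% changed, 16.6% higher and 15.8% lower, so the members' count was not above that of the table as a whole. The groups did not overlap in 1 of the 6 tested members and in 44.9% of all tested genes. The median log2 fold change was 0.09 over the 6 tested members and 0.01 over all tested genes. The test was the edgeR quasi-likelihood F-test with Benjamini-Hochberg adjustment over all tested genes, and it gave every adjusted p below unless another test is named.

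SOX4 (gene ID 6659, 1 exon, chr6:21593751-21598619, plus strand, GRCh38) is a group C activator often raised in tumours. It had 8725, 8629 and 9477 counts in LHX2 replicates 1 to 3, and 7524, 9128 and 8041 in control replicates 1 to 3. After scaling these were 290, 283 and 263 CPM with LHX2 and 231, 233 and 248 CPM in the control. Every LHX2 library was above every control library, with LHX2 replicate 3 and control replicate 3 nearest to each other. The means were 279 ± 14.2 CPM with LHX2 and 237 ± 9.05 CPM in the control (SD, n = 3 each). The log2 fold change was 0.23 ± 0.045 (SE, adjusted p = 0.00103), a rise of 17.5% with a 95% interval of 1.10-fold to 1.26-fold. SOX4 passed under each of 16 alternative settings, with log2 fold changes of 0.19 to 0.27 and adjusted p-values of 1.55e-05 to 0.0109. The change was small within the table, where 32.6% of the genes that changed moved less than SOX4 and their median absolute log2 fold change was 0.30. In bulk RNA a change in the number of cells that express a gene and a change per cell cannot be told apart.

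**Figure D1:**
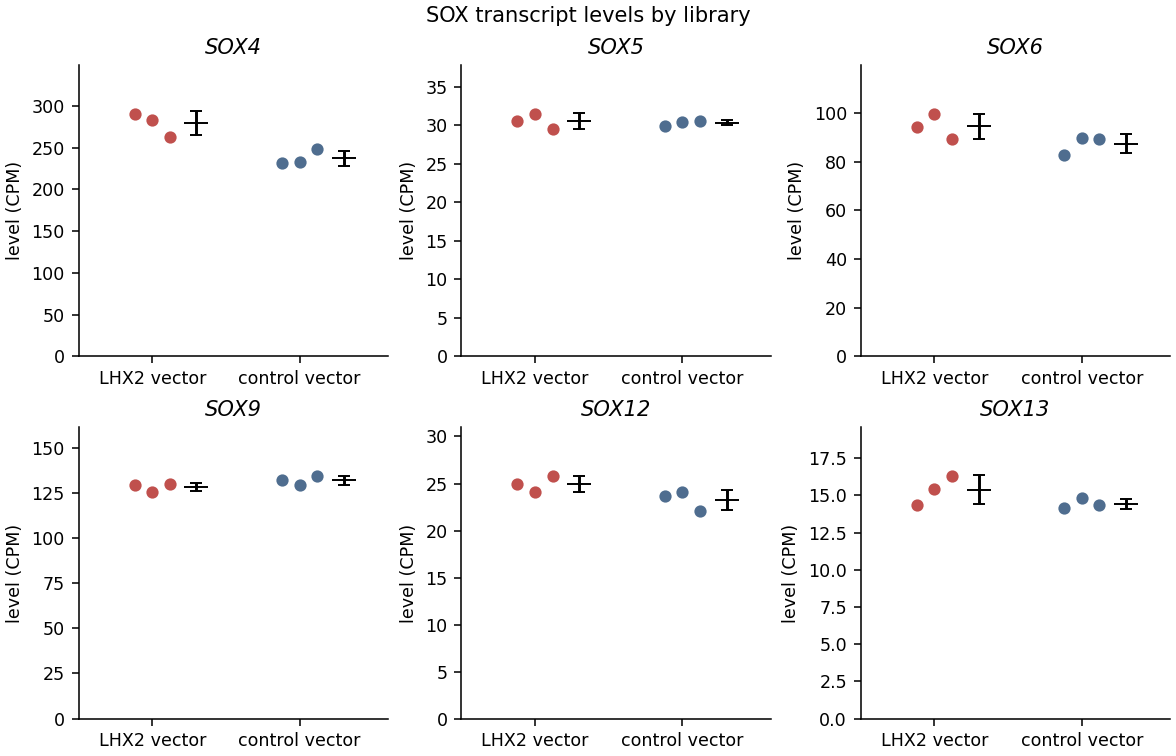
Levels of the 6 tested SOX genes in CPM (vertical axes from 0), with each point a library, LHX2 vector left and control vector right, and bars the mean and SD of 3 libraries. SOX4 is the panel without overlap, at 263 to 290 CPM with LHX2 and 231 to 248 CPM in the control.

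SOX12 (gene ID 6666, 1 exon, chr20:325552-330224, plus strand), the other group C gene with counts, had 749, 733 and 930 counts with LHX2 and 769, 945 and 716 in the control. Its levels were 24.9, 24.1 and 25.8 CPM with LHX2 and 23.6, 24.1 and 22.1 CPM in the control, and control replicate 2 lay just above LHX2 replicate 2. The log2 fold change of 0.10 ± 0.064 (SE, adjusted p = 0.259) did not pass, with a 95% interval of 0.975-fold to 1.18-fold. It was -0.0077 after adjustment for the trend of the group difference over length and GC content, which was 0.11 at the values of SOX12. The transcript of SOX12 had a GC content of 62.0%, and that of SOX4 50.7%, where the trend was 0.04. The trend did not follow GC content alone, at 0.09 for SOX6 (41.9%) and 0.045 for SOX13 (58.5%). SOX11, a group C factor of neural precursors, had 0 counts in all 6 libraries, which allows at most 0.0757 to 0.0999 CPM per library (3 counts).

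Group D proteins lack an activation domain of their own, and SOX5 and SOX6 are known from cartilage, where they act beside SOX9. SOX6 (gene ID 55553, chr11:15966449-16738477, minus strand) had 2836, 3038 and 3220 counts with LHX2 and 2699, 3523 and 2900 in the control. Its levels were 94.4, 99.7 and 89.4 CPM with LHX2 and 83.0, 89.9 and 89.3 CPM in the control. LHX2 replicate 3 fell among the control libraries, while the other LHX2 libraries lay above all of them. The log2 fold change of 0.11 ± 0.049 (SE, adjusted p = 0.0941) did not pass. SOX6 passed without LHX2 replicate 3 (0.15, adjusted p = 0.0221) and with library totals alone (0.14, adjusted p = 0.0305), and the value was 0.02 (adjusted p = 0.695) with the length and GC adjustment.

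SOX5 (gene ID 6660, chr12:23529504-24562650, minus strand) had 918, 959 and 1062 counts with LHX2 and 974, 1193 and 993 in the control, or 30.6, 31.5 and 29.5 CPM with LHX2 and 29.9, 30.4 and 30.6 CPM in the control. The LHX2 libraries spanned the whole control range. The log2 fold change was 0.01 ± 0.055 (SE, adjusted p = 0.931), with a 95% interval of 0.927-fold to 1.09-fold. Its sign changed without LHX2 replicate 2, without control replicate 1 and with the length and GC adjustment.

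SOX13 (gene ID 9580, chr1:204073115-204127743, plus strand) had 432, 470 and 588 counts with LHX2 and 461, 581 and 467 in the control. Its levels were 14.4, 15.4 and 16.3 CPM with LHX2 and 14.2, 14.8 and 14.4 CPM in the control, with LHX2 replicate 1 inside the control range. The log2 fold change of 0.09 ± 0.075 (SE, adjusted p = 0.399) had a 95% interval of 0.952-fold to 1.19-fold.

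SOX9 (gene ID 6662, chr17:72121020-72126416, plus strand), the group E factor of cartilage, testis and bile ducts, had 3896, 3834 and 4679 counts with LHX2 and 4304, 5082 and 4370 in the control. Its levels were 130, 126 and 130 CPM with LHX2 and 132, 130 and 135 CPM in the control. LHX2 replicates 1 and 3 lay at the level of control replicate 2, the lowest of the control libraries. The means were 128 ± 2.27 CPM with LHX2 and 132 ± 2.47 CPM in the control (SD, n = 3 each), and the log2 fold change was -0.04 ± 0.038 (SE, adjusted p = 0.445). The 95% interval ran from 0.919-fold to 1.03-fold, and 0 of 16 alternative settings gave an adjusted p under 0.05. SOX8, the related factor of neural crest and testis, had 1, 0 and 5 counts with LHX2 and 3, 2 and 3 in the control and was not tested.

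**Figure D2:**
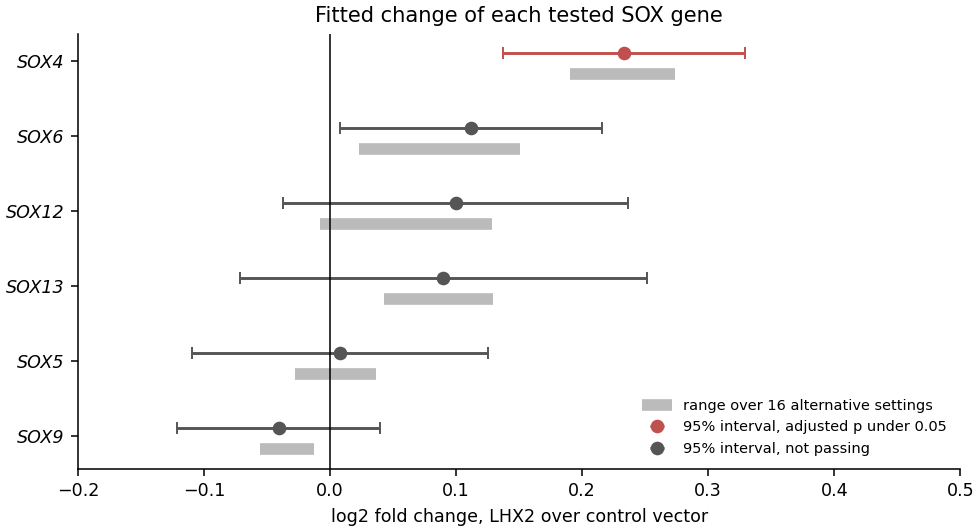
Log2 fold change of each tested SOX gene, LHX2 over control vector (horizontal axis), with points the fitted values, bars their 95% intervals and grey bands the range over 16 alternative settings. SOX4 at 0.23 is the gene that passed, the interval of SOX9 spans 0, and the band of SOX12 reaches -0.0077.

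SOX2, the pluripotency and neural stem cell factor of group B1, had 1, 1 and 2 counts with LHX2 and 0, 0 and 0 in the control. No library went above the floor of 3 counts, so no fold is given. SOX18, which acts in blood and lymph vessel endothelium, had 0 counts in all 6 libraries. These genes and SOX8 and SOX11 are the 4 members without a test.

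Several members share their position with another gene, and the strand setting of the counting is not given in the sources used here. SOX2 lies within SOX2-OT on the same strand, which had 7, 5 and 11 counts with LHX2 and 11, 12 and 3 in the control. SOX9 overlaps SOX9-AS1 on the opposite strand, with 26, 57 and 51 counts with LHX2 and 60, 56 and 49 in the control (log2 fold change -0.19 ± 0.24, SE, not passing). SOX12 overlaps NRSN2-AS1, also opposite, at 1.45 ± 0.143 CPM with LHX2 and 1.46 ± 0.480 CPM in the control (SD, n = 3 each). The gene span of SOX6 overlaps that of the opposite-strand gene C11orf58, at 312 ± 8.36 CPM with LHX2 and 321 ± 4.28 CPM in the control (SD, n = 3 each), a log2 fold change of -0.04 ± 0.038 (SE) that did not pass. SOX5-AS1 had 1 count in 1 control library. The antisense gene annotated over SOX4 has no row in the table, and its part in the SOX4 counts was not tested.

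Levels of different members were compared per length, in TPM, counts divided by the length of the longest annotated transcript and scaled to the same total in each library. SOX4 was at 147, 146 and 138 TPM with LHX2 and 115, 115 and 123 TPM in the control. SOX9 followed at 98.4 ± 2.53 TPM with LHX2 and 97.3 ± 2.12 TPM in the control (SD, n = 3 each). The order of the mean levels was then SOX6, SOX12, SOX5 and SOX13 in both groups, at 32.1, 16.2, 13.2 and 12.9 TPM with LHX2 and 28.6, 14.6, 12.6 and 11.7 TPM in the control. SOX4 lay above SOX9 and SOX9 above SOX6 in every library, while SOX5 and SOX13 were within their spread of each other with LHX2. With the union of all annotated exons as length SOX12 stood above SOX6, at 23.1 and 20.6 TPM with LHX2 and 20.8 and 18.4 TPM in the control. SOX4 had 5852 bases by either length, more than its RefSeq span. Its level with the RefSeq length was not computed.

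SOX4 made up 45.4% ± 1.31 of the summed TPM of the members with LHX2 and 41.6% ± 0.695 in the control, and SOX9 31.1% ± 1.01 with LHX2 and 34.5% ± 0.512 in the control (SD, n = 3 each). The summed TPM of all members was 314 to 318 with LHX2 and 279 to 289 in the control. With the union of exons as length SOX4 made up 49.9% with LHX2 and 45.8% in the control. On the TPM scale the median difference over all tested genes was 0.07 (log2), against 0.01 on the CPM scale, and the sign of the small SOX9 difference turned with it (98.4 TPM with LHX2 and 97.3 TPM in the control).

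**Figure D3:**
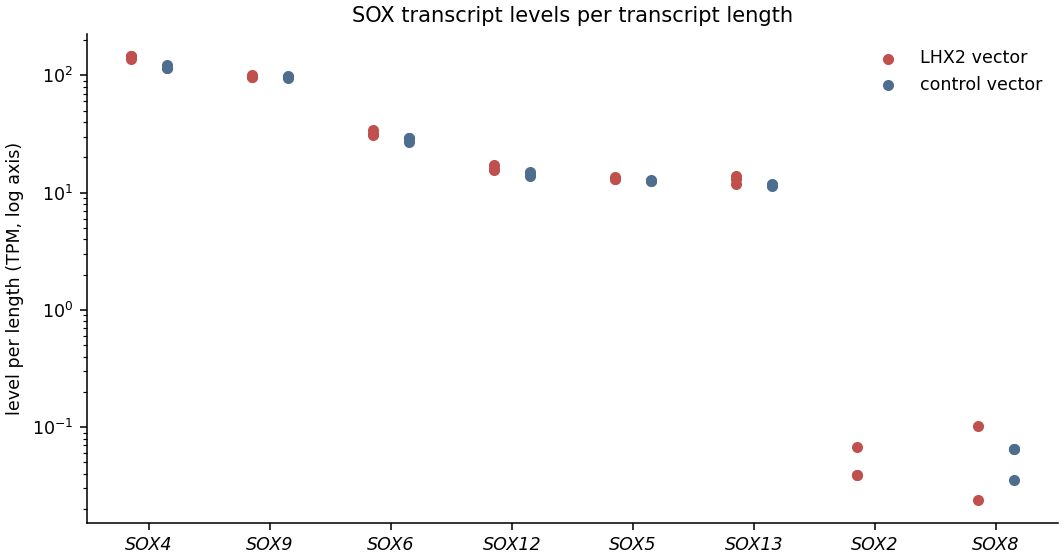
Levels per transcript length in TPM on a log axis for the 8 of the 10 listed SOX genes with any count, with each point a library and libraries at 0 not drawn. SOX4 and SOX9 stand highest in both groups, and SOX2 and SOX8 lie at or near the level of single reads.

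The ratio of counts of 2 genes within a library does not depend on how libraries are scaled. SOX4 was set against each of the 5 other tested members in this way, a choice made after the values were seen. The ratio of SOX4 to SOX9 was 2.24, 2.25 and 2.03 with LHX2 and 1.75, 1.80 and 1.84 in the control, with every LHX2 library above every control library. The mean log2 ratio was 0.27 higher with LHX2 (exact two-sided permutation test, p = 0.1, the smallest that 3 against 3 allows, and 0.167 adjusted over 5 ratios). The ratio to SOX5 was 9.14 ± 0.316 with LHX2 and 7.83 ± 0.239 in the control, and that to SOX6 2.95 ± 0.118 with LHX2 and 2.72 ± 0.110 in the control (SD, n = 3 each), also without overlap. The ratios to SOX12 and SOX13 overlapped, with differences of 0.13 and 0.15 (log2) and exact permutation p-values of 0.2 and 0.3. With 3 libraries a group this test cannot reach 0.05, so whether SOX4 differed from the other members was not decided by it. All 5 ratios share the SOX4 counts, so they are not separate observations.

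**Figure D4:**
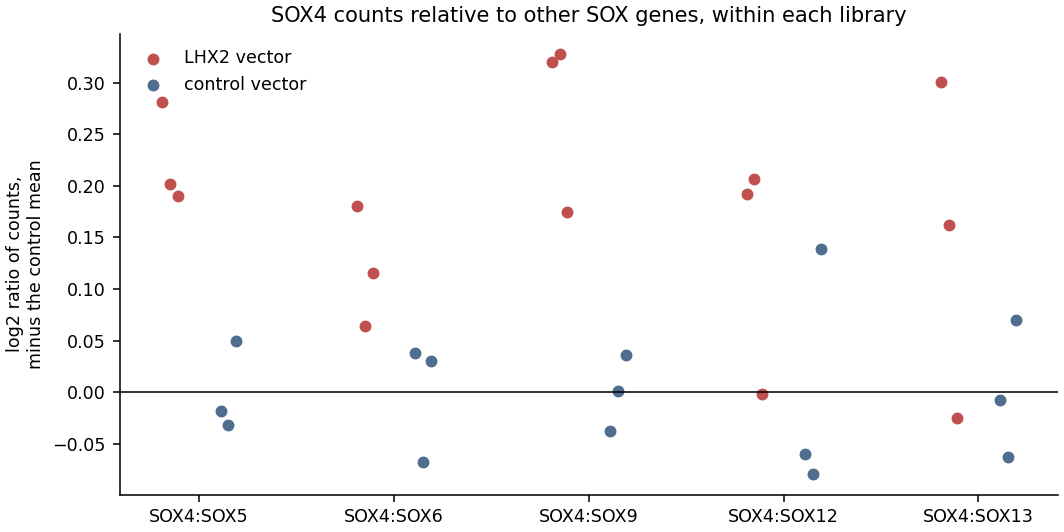
Log2 ratio of SOX4 counts to those of 5 other SOX genes within each library, minus the mean of the control libraries, with each point a library, LHX2 vector left and control vector right. The ratios to SOX5, SOX6 and SOX9 do not overlap between groups, and those to SOX12 and SOX13 do.

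The genes whose pattern over the 6 libraries was most like that of SOX4 were TMEM263, AKNA, INSR, TTC39C and RAB11FIP2. Likeness was the root mean square difference of log2 CPM deviations from each gene's mean, and it was 0.008 for TMEM263 and 0.024 for RAB11FIP2 among 10098 candidates. TMEM263 had 144, 140 and 131 CPM with LHX2 and 115 to 124 CPM in the control. INSR, the insulin receptor, had 60.4, 58.7 and 53.6 CPM with LHX2 and 49.9 ± 1.47 CPM in the control (SD, n = 3). In both, LHX2 replicate 3 was the lowest of the LHX2 libraries, as for SOX4, which follows from choosing genes by this likeness. AKNA did not pass (log2 fold change 0.22, adjusted p = 0.0821).

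Other SOX genes were at or near 0. SOX1, SOX3, SOX10, SOX14, SOX17, SOX21 and SOX30 had 0 counts in all 6 libraries, and SOX15 had 2 to 6 counts with LHX2 and 2 to 5 in the control. SOX7, a group F gene of endothelium, was the only other one tested, with 27, 19 and 21 counts with LHX2 and 46, 35 and 30 in the control. Its levels were 0.899, 0.624 and 0.583 CPM with LHX2 and 1.41, 0.893 and 0.924 CPM in the control, and LHX2 replicate 1 lay above control replicate 2. The log2 fold change of -0.62 ± 0.28 (SE, adjusted p = 0.105) did not pass. Of the noncoding genes named after a SOX gene and not yet given, SOX1-OT had 0 counts and SOX21-AS1 had 1.

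Among 22 other genes with an HMG box, 7 of 20 tested were higher, 2 lower and 11 did not pass, with a median log2 fold change of 0.05. The shares over all tested genes were 16.6% higher and 15.8% lower. Some of the 7 did not pass without LHX2 replicate 1, control replicate 1 or control replicate 2. TCF7L1, a Wnt pathway factor, was at 8.92 ± 0.706 CPM with LHX2 and 4.78 ± 0.445 CPM in the control (SD, n = 3 each). TOX3 rose 1.41-fold, with 30.5, 26.8 and 28.1 CPM with LHX2 and 20.2, 20.1 and 20.3 CPM in the control. The transcriptional repressor gene CIC (0.31) and the histone methyltransferase gene NSD2 (0.19) rose on the log2 scale, but with the length and GC adjustment they did not pass at 0.13 and 0.09, and 4 members of the list were then higher. TFAM and HMGB1, which package mitochondrial and nuclear DNA, were the members that fell, and HMGB1 did not pass without control replicate 2 (-0.14, adjusted p = 0.0578).

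Of 16 partners and regulators of SOX proteins 5 were higher, 3 lower and 8 did not pass, with a median of 0.05. All tested genes together had 16.6% higher and 15.8% lower. MEF2C, a partner of SOX18, rose 1.32-fold to 17.3 ± 0.683 CPM, against 13.1 ± 0.676 CPM in the control (SD, n = 3 each; adjusted p = 0.000835). SDCBP encodes syntenin, which binds and stabilises SOX4 protein. It had 100, 95.9 and 98.3 CPM with LHX2 and 82.8, 86.5 and 85.0 CPM in the control, with no overlap (log2 fold change 0.21 ± 0.040, SE, adjusted p = 0.000846). The acetyltransferase gene EP300 (0.22) passed, but not with the length and GC adjustment (0.05, adjusted p = 0.391). FBXW7, part of a ubiquitin ligase that degrades SOX9, was at -0.21, and it did not pass when any library but LHX2 replicate 3 was left out. The counts moved with single libraries too, to 3 higher and 0 lower without control replicate 1 or 2, to 0 lower without control replicate 3 and to 1 lower without LHX2 replicate 2 or 3. With library totals alone 0 were lower, and with DESeq2 or the length and GC adjustment 3 were higher.

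Genes of bile ducts and liver progenitors were higher for most tested members of the list: 10 of the 15 rose and 0 fell, the other 5 missing the threshold, with a median log2 fold change of 0.35. Over all tested genes 16.6% were higher and the median was 0.01. The list was chosen with earlier results of these data known, so its count may not be independent of them. The summed level of the 23 genes was 3075 to 3205 CPM with LHX2 and 2280 to 2314 CPM in the control. ANXA4, an annexin of duct cells, was at 243, 232 and 232 CPM with LHX2 and 87.6, 90.5 and 90.0 CPM in the control, a 2.64-fold rise. PROM1, the surface protein CD133, rose 1.65-fold to 256 ± 4.33 CPM, against 154 ± 3.34 CPM in the control (SD, n = 3 each). ONECUT2 and ONECUT1, homeobox factors of hepatocytes and bile ducts, were the other members with the largest changes (1.41 and 0.63). The duct keratin gene KRT7, MMP7 and SCTR had 0 counts in every library. Other duct genes below the filter were lower with LHX2 without overlap, their LHX2 counts at or near the floor of 3. CFTR, a chloride channel, had 3, 4 and 7 counts with LHX2 and 15, 9 and 24 in the control. CLDN4, a tight junction protein, had 3, 2 and 2 counts with LHX2 and 6, 7 and 10 in the control. Without LHX2 replicate 3, control replicate 2 or control replicate 3, 1 member was called lower, as with no filter on low counts and with the length and GC adjustment.

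Cartilage genes, classical targets of SOX9 with SOX5 and SOX6, went both ways. Among the 9 tested genes 3 fell, 1 rose and the other 5 missed the threshold, and ACAN was at 0 in every library. Of all tested genes 15.8% fell and 16.6% rose. COL2A1, type II collagen, had 59.5, 59.6 and 67.1 CPM with LHX2 and 81.3, 85.4 and 86.4 CPM in the control, with no overlap. Its log2 fold change was -0.44 ± 0.052 (SE, adjusted p = 1.29e-05). COL27A1 (-0.37) and SNORC, a small chondrocyte proteoglycan (-0.63), also fell. COL9A2 was the member that rose (0.51), and it did not pass without LHX2 replicate 3, control replicate 1 or control replicate 2 (0.29 to 0.48), while 2 members were higher without LHX2 replicate 2, without control replicate 3 or with no filter. The median of the list, 0.11, had the opposite sign to most of its calls.

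Neural genes, in whose precursors SOX2 and SOX11 are best known, had 4 of 7 tested higher, 0 lower and 3 not passing, with a median of 0.20. Of all tested genes 16.6% were higher and 15.8% lower. MAP2, a microtubule protein of neurons (0.37), TUBB3, a neuronal tubulin (0.32), and NES, an intermediate filament protein of neural precursors (0.20), rose on the log2 scale, although NES did not pass without control replicate 2 (0.18) or with the length and GC adjustment (0.09). 1 member was called lower without LHX2 replicate 1, with no filter, with limma-voom and with the length and GC adjustment. STMN2, NCAM1 and OTX2 had 0 counts in every library.

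Of the 14 pluripotency genes 6 were tested, with 1 higher, 1 lower and 4 not passing, beside 16.6% higher and 15.8% lower over all tested genes. LIN28B fell to 543 ± 24.2 CPM with LHX2, against 608 ± 22.9 CPM in the control (SD, n = 3 each). DPPA4 was the member that rose (1.26), at 0.399 CPM with LHX2 and 0.162 CPM in the control on average. It did not pass without LHX2 replicate 1 or 2 or control replicate 1 or 2 (adjusted p of 0.0863 to 0.135). Nor did it pass with no filter, DESeq2 or the replicate block, and a filter at 1 CPM left it untested. LEFTY1, below the filter, had 9, 12 and 10 counts with LHX2 and 4, 5 and 5 in the control, without overlap. Of the endothelial list, where SOX18 and SOX7 are best known, 2 genes were tested. PROX1, also a hepatocyte factor, rose (0.28), and PECAM1 was at -0.41. PECAM1 did not pass without LHX2 replicate 3, control replicate 1 or control replicate 3, nor with DESeq2 or the replicate block.

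Markers of other lineages moved with the groups in part, where 16.6% of all tested genes rose and 15.8% fell. COL1A2 (1.99), LUM (0.49) and PDGFRA (0.25) were the 3 tested mesenchymal genes and rose, PDGFRA not passing without control replicate 3 (0.20) or with the length and GC adjustment (0.19, adjusted p = 0.051). Below the filter, COL3A1 had 2, 2 and 4 counts with LHX2 and 9, 7 and 8 in the control, and PDGFRB had 1, 1 and 2 with LHX2 and 6, 10 and 6 in the control. Both were lower with LHX2 without overlap, but their counts with LHX2 were at or near the floor of 3. With no filter 1 gene of the list was called lower. The summed level of the list was 67.9 to 73.5 CPM with LHX2 and 35.3 to 38.5 CPM in the control, and its median log2 fold change 0.49. Of 3 tested immune genes CD68 (0.99) and LYZ (0.43) rose, and the median was 0.43. The immune list summed to 612 to 678 CPM with LHX2 and 471 to 500 CPM in the control. Of the hepatocyte list AMBP (0.54) rose and APOA2 (-0.36), SERPINA1 (-0.30) and HNF4A (-0.26) fell, while TF, the transferrin gene (0.22), was the other that rose and did not pass with the length and GC adjustment (0.07). Their part in the SOX4 result was not tested.

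**Figure D5:**
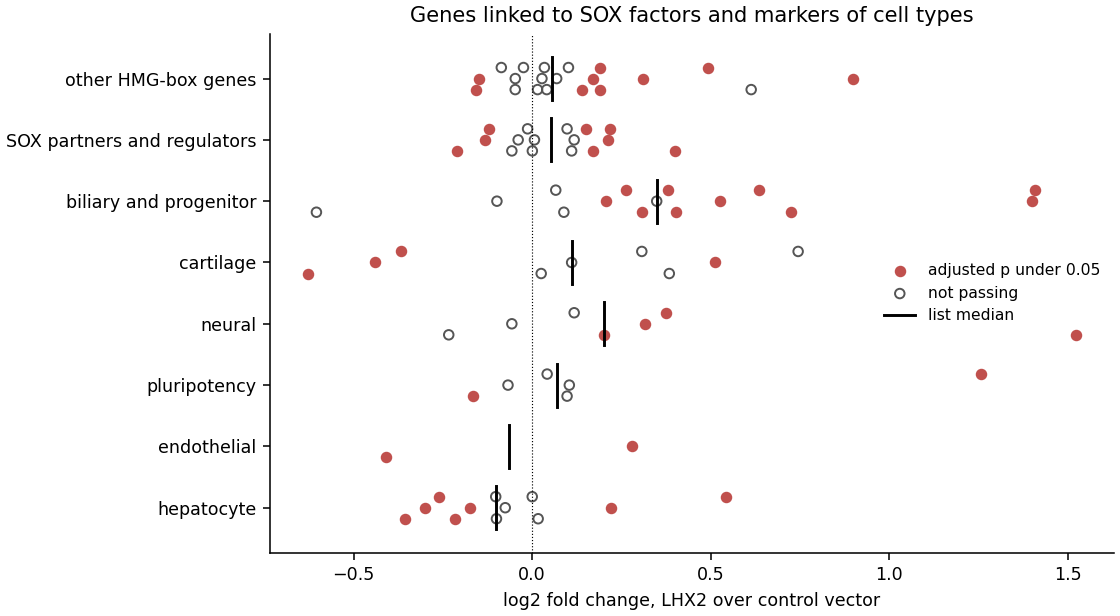
Log2 fold change, LHX2 over control vector, of the tested genes in 8 of the 11 lists, without other SOX genes, mesenchymal and immune genes, with filled points at an adjusted p under 0.05, open points not passing and bars the list medians. Among the lists drawn the biliary and progenitor list has the median farthest from 0, at 0.35, and the cartilage list has genes on both sides. The lists not drawn have medians farther from 0, at 0.49 (mesenchymal), 0.43 (immune) and -0.62 (other SOX genes, 1 tested).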

How the data were processed

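The authors deposited raw read counts per gene, whole numbers without normalization, for 6 libraries. Per the labels' protocols, the kit for mRNA libraries keeps strand. Per the submitters' processing notes, the tools included featureCounts 2.0.0, TopHat2 2.1.1, SAMtools 1.9 and Bowtie2 2.3.5.1, and the build was GRCh38/hg38. Neither annotation nor strand setting is stated in these sources. A control column written in another form was taken as control replicate 1, by the 1 at its end.

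The function filterByExpr of edgeR (a count of 10, a total of 15 and a proportion of 0.7) set the genes tested. TMM factors (0.985 to 1.02) scaled the libraries. The quasi-likelihood F-test of edgeR had group as its only term, with Benjamini-Hochberg adjustment and a threshold of 0.05. Standard errors come from the F statistic. Transcript length and GC content came from GENCODE 29 (95.2% of genes matched), positions and promoters from RefSeq GRCh38.p14. Alternatives were other size factors, totals alone or without LHX2, other filters, DESeq2, limma-voom, a replicate block, leaving out each library, and subtraction of a loess trend (span 0.3) over length and GC content, the adjustment named in the text. Versions were Python 3.11.15, matplotlib 3.10.9, DESeq2 1.42.0, limma 3.58.1, edgeR 4.0.16 and R 4.3.3.

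The members and the 11 lists were chosen with earlier results of these data known. Named genes were all members, other SOX genes, noncoding genes named after them, LHX2, up to 4 genes of each list with the largest changes among those passing, and the 5 genes most like SOX4 (mean of at least 5 CPM). NRSN2-AS1, C11orf58, TFAM, HMGB1, TF, ALB, AFP, CFTR, CLDN4, COL3A1, PDGFRB, LEFTY1 and list genes at 0 were named outside that rule, after their values were seen. Limits from a count of 0 cover counting error only. 1 gene that the naming rule picked is not reported here.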

Additional observations from a re-analysis of the deposited data

How the results depend on the processing

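SOX4 kept its direction and passed under all 16 alternatives, and SOX9, SOX5, SOX12 and SOX13 passed under none. SOX6 passed with library totals alone (0.14), so that 2 members were called, and without LHX2 replicate 3 (0.15). With 1 library left out the number of members called was 1 to 2, and the log2 fold changes were 0.20 to 0.27 for SOX4, 0.0715 to 0.15 for SOX6 and -0.0151 to 0.0324 for SOX5, which was at -0.0018 without control replicate 1. With the length and GC adjustment SOX5 was at -0.0279 and SOX12 at -0.0077. Of the 149 list genes 51 were called, and 40 to 56 under the alternatives. Over all tested genes 32.5% were called, but the 149 include genes not tested, so the bases differ. The lists were chosen with earlier results of these data known. With the union of exons as length SOX4 made up 47.8% of the summed TPM of the members over all libraries, beside 43.5% with the longest transcript. With the replicate block SOX4 was at 0.23 (adjusted p = 0.00997) and 1 member was called, and the number of list genes called was 42. Same-numbered libraries did not deviate together (correlations of -0.06, -0.07 and -0.20), so the numbers were not taken to pair them. The causes of these shifts were not tested. Groups of 3 were too few to test for outlying libraries, and genes under the floor of 3 counts could not be compared.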
